A study of Homo sapiens with 6 samples.

Results

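The genes described here encode eukaryotic translation initiation factors (eIFs). They were taken from the deposited gene table as every row whose name begins with EIF and a digit and whose transcript types include protein-coding, leaving out the EIF2AK kinases. This gave 50 genes of 33539 in the table, and another 44 EIF rows, mostly processed pseudogenes, had no protein-coding type. All 50 genes had a mean of at least 0.5 FPKM (fragments per kilobase of gene model, scaled to sequencing depth) and entered the test. Poly(A) RNA was sequenced from the 8505C line, long-established cells of an anaplastic thyroid carcinoma, 24 h after treatment with a negative control siRNA (NC, 3 libraries) or with siRNA against POLR1F (siPOLR1F, 3 libraries). POLR1F belongs to RNA polymerase I, which makes the precursor of most ribosomal RNA, and the series asks how its silencing alters other genes. The labels name no siRNA sequence and do not say whether the numbers 1 to 3 mark separate cultures, repeat libraries or different siRNAs. They are called replicates here, and p-values cover only library-to-library spread, which may be technical.

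Initiation factors bring the small ribosomal subunit and the initiator tRNA to the start codon of an mRNA. The trimeric eIF2 carries the initiator tRNA with GTP, and eIF2B recharges eIF2 with GTP after each round. The eIF4F complex joins the cap-binding eIF4E, the scaffold eIF4G and the RNA helicase eIF4A, while the large eIF3 complex holds the small subunit and links it to eIF4F. The factors eIF1, eIF1A and eIF5 act in start codon selection, eIF5B joins the large subunit, and eIF6 keeps free large subunits from joining too early. In many cancers the supply of eIF4F and the phosphorylation of eIF2 are points at which protein synthesis is controlled.

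Depth was alike across the libraries, from 60576788 to 63038378 counts. POLR1F was at 8.80, 8.42 and 7.64 FPKM in NC and at 2.09, 1.42 and 1.51 FPKM in siPOLR1F (edgeR quasi-likelihood test, log2 fold change -2.30, SE 0.15, adjusted p = 9.76e-05). Of the thyroid follicular cell markers, TG, TSHR and SLC5A5 had at most 10 counts in any library, while NKX2-1 lay between 25.7 and 47.2 FPKM. Of the leukocyte markers, PTPRC had at most 11 counts, while CD68 lay between 7.51 and 15.7 FPKM with overlapping groups. Of 22 cell type markers in the table, 4 lay lower in all siPOLR1F libraries than in all NC libraries and 1 lay higher. Among all genes tested these shares were 19.0% and 18.9%, so the count of lower markers was near the share among all genes. The lower ones were NKX2-1 (41.8 to 47.2 FPKM in NC, 25.7 to 28.8 in siPOLR1F), the epithelial KRT8 (112 to 125 and 92.8 to 103), the mesenchymal FN1 (48.6 to 53.9 and 33.4 to 43.2) and the endothelial CDH5 (5.43 to 5.88 and 2.22 to 3.48). The mesenchymal CDH2 was the higher one (13.2 to 13.7 and 13.9 to 14.8). The other endothelial markers, PECAM1 and VWF, stayed at or below 0.706 FPKM. Mitochondrial genes took 4.93% to 5.15% of counts in NC and 4.32% to 4.85% in siPOLR1F, and the part of these differences in the results was not tested. RNA was measured in bulk, so fewer cells with a transcript and less of it per cell cannot be told apart.

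The transcription starts of the genes the results turn on are shown first, because several begin with the run of pyrimidines that marks messages whose translation is tied to mTOR signalling (5′ terminal oligopyrimidine, or TOP, messages). Each line gives 40 bases before and 20 bases from the RefSeq start (GRCh38.p14), 5′ to 3′ on the gene's own strand. Capitals mark an unbroken run of C and T that begins with C at the start base and is at least 5 bases long. EIF2S3 lies at chrX:24054916-24054975 (plus strand), EIF3D at chr22:36529147-36529206 (minus strand), EIF3F at chr11:7987297-7987356 (plus strand), EIF4A2 at chr3:186783537-186783596 (plus strand), EIF4A1 at chr17:7572785-7572844 (plus strand), EIF2B2 at chr14:75002881-75002940 (plus strand) and EIF3B at chr7:2354787-2354846 (plus strand).
EIF2S3: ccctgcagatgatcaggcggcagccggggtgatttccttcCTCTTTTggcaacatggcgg
EIF3D: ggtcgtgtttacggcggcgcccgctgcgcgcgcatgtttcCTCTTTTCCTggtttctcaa
EIF3F: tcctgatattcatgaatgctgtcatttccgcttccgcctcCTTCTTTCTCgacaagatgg
EIF4A2: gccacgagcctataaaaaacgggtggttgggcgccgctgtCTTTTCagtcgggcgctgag
EIF4A1: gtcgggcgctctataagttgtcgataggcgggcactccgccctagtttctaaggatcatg
EIF2B2: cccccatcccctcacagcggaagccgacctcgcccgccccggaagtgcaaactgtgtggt
EIF3B: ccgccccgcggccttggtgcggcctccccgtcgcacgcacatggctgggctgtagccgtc

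Such a run stood at a start of 4 of the 6 genes past the test (EIF2S3, EIF3D, EIF3F and EIF4A2) and of 10 of the 42 initiation factor genes with a RefSeq window. Over all 27305 genes with a window, whether or not they were tested here, 5.14% had one at any start. The other members with a run were EIF2A, EIF2D, EIF2S3B, EIF3K, EIF3M and EIF4B, whose log2 fold changes lay between -0.07 and 0.09 and did not pass. The 8 members without a window were EIF2S2, EIF3A, EIF3CL, EIF3E, EIF3G, EIF3H, EIF3L and EIF4EBP1. None of these passed the test, and whether they begin with a run was not examined. The run was sought on the gene's own strand alone and is a match of letters at an annotated start. The RefSeq start need not be the start in the deposited table. It lies inside the deposited gene span by 17086 bases for EIF3F, 741 for EIF3B, 372 for EIF4A2, 18 for EIF3D, 10 for EIF2S3 and 1 for EIF4A1, and at its first base for EIF2B2. At EIF4A1 the run is 3 bases long and is not in capitals. EIF2S3, which carries it, fell, while EIF3D, EIF3F and EIF4A2 rose.

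Most initiation factor genes did not pass the test, and the changes that did were small. By edgeR at an adjusted p below 0.05, 5 of the 50 were higher in siPOLR1F, where 10.3% of all 13564 genes tested were higher. EIF2S3 alone was lower, 1 of 50, where 6.94% of all genes tested were lower. The share that rose was therefore near the share among all genes. The median log2 fold change of the 50 genes was 0.05, and that of all genes tested was -0.01. At an unadjusted p below 0.05, 10 members were higher and 2 lower, against 17.6% and 15.4% of all genes tested. In 11 members all siPOLR1F libraries lay above all NC libraries and in 5 all lay below, against 18.9% and 19.0% of all genes.

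Of the 44 members that did not pass, 39 had a 95% interval of the log2 fold change that lay within 0.5 of 0 in either direction. For 32 of these the interval lay within 0.3. The 5 with wider intervals were EIF2S3B, EIF4A1, EIF4E3, EIF4EBP3 and EIF5B. The median SD of log2 FPKM among NC libraries was 0.0788 over the members and 0.119 over all genes tested.

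**Figure D1:**
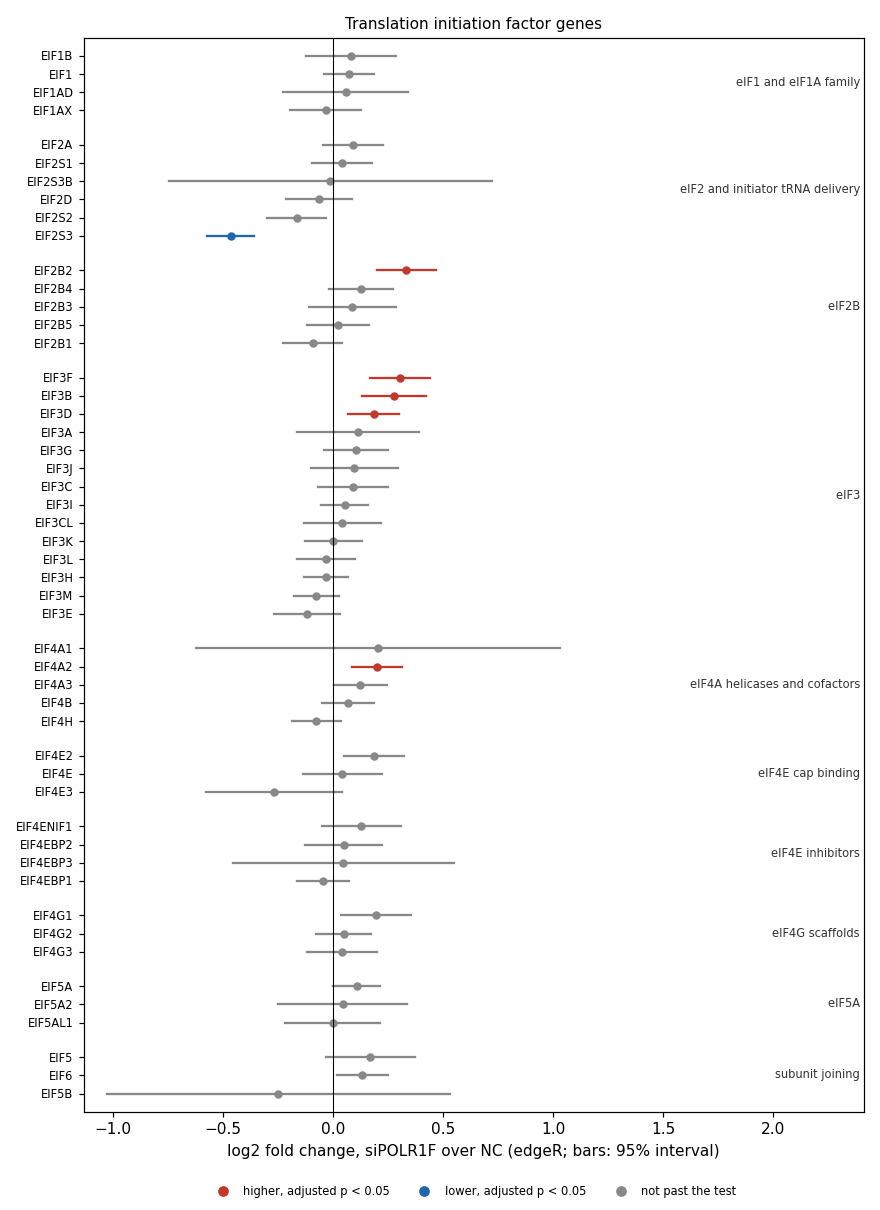
Log2 fold change (siPOLR1F over NC, horizontal axis) of the 50 initiation factor genes, grouped by role, with points for the edgeR estimate and bars for its 95% interval. EIF2S3 lies apart on the lower side at -0.46, the 5 higher genes lie between 0.19 and 0.33, and EIF4A1, EIF5B and EIF2S3B have the widest bars.

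The largest call was in eIF2, and it touched 1 subunit. EIF2S3 (ENSG00000130741, GRCh38 chromosome X, 24054946 to 24078810, plus strand) encodes the gamma subunit, which binds GTP and the initiator tRNA. It was at 94.9, 91.4 and 92.5 FPKM in NC and at 64.5, 68.7 and 67.9 FPKM in siPOLR1F. The groups were far apart and each was tight. EIF2S3 fell by 27.5% (log2 fold change -0.46, SE 0.05; edgeR adjusted p = 5.96e-04). This call held under each of its 18 alternative settings, with adjusted p-values of at most 0.00605.

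The other eIF2 subunit genes did not pass the test. EIF2S1, the alpha subunit that stress kinases phosphorylate, was at 39.7, 40.8 and 36.2 FPKM in NC and at 39.6, 38.6 and 41.3 FPKM in siPOLR1F (log2 fold change 0.04, 95% interval -0.10 to 0.18). EIF2S2, the beta subunit, was at 110, 107 and 99.1 FPKM in NC and at 94.9, 89.7 and 96.0 FPKM in siPOLR1F. All siPOLR1F values of EIF2S2 lay below the NC values, but the change did not pass the test (log2 fold change -0.16, SE 0.06; edgeR adjusted p = 0.0880). The FPKM ratio of EIF2S3 to EIF2S1 was 2.40 ± 0.157 in NC and 1.68 ± 0.0831 in siPOLR1F (SD, n = 3 each; exact two-sided permutation p = 0.1). The ratio of EIF2S3 to EIF2S2 was 0.884 ± 0.0430 and 0.718 ± 0.0440 (exact two-sided permutation p = 0.1). This p is the smallest that 3 against 3 libraries allow, and both ratios were chosen after their values were seen.

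EIF2S3B, an autosomal copy of EIF2S3 on chromosome 12, shares most of its sequence, so reads of the copies may be divided between them. It had 419, 407 and 448 counts in NC and 250, 692 and 330 in siPOLR1F. Because EIF2S3 had 18239 to 27285 counts, the copy could move its total little. The sum of both rows was 431 ± 10.1 CPM (counts scaled to the library total) in NC and 311 ± 12.1 in siPOLR1F (SD, n = 3). The other initiator tRNA carriers, EIF2A and EIF2D, had log2 fold changes of 0.09 and -0.06 and did not pass.

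In eIF2B, the exchange factor of eIF2, 1 of 5 subunit genes rose and none of the 5 fell, against 10.3% and 6.94% of all genes tested. EIF2B2 (ENSG00000119718, chromosome 14, 75002921 to 75012366, plus strand), the regulatory beta subunit, was at 12.2, 13.5 and 12.9 FPKM in NC and at 15.9, 15.7 and 16.8 FPKM in siPOLR1F. Every siPOLR1F library lay above every NC library. The log2 fold change was 0.33 (SE 0.06; edgeR adjusted p = 0.00785), a rise of 26.0%, and it held under all 18 alternatives. The catalytic subunit gene EIF2B5 averaged 10.4 ± 0.664 FPKM in NC against 10.5 ± 0.307 (SD, n = 3; log2 fold change 0.02, 95% interval -0.12 to 0.16). The changes of EIF2B1, EIF2B3 and EIF2B4 lay between -0.09 and 0.13 and did not pass.

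Of 14 eIF3 subunit rows, 3 rose and none of the 14 fell, against 10.3% and 6.94% of all genes tested. EIF3F (ENSG00000175390, chromosome 11, 7970251 to 8001862, plus strand), a subunit with a deubiquitinase-like domain, was at 13.5, 12.4 and 13.9 FPKM in NC and at 15.5, 16.6 and 16.9 FPKM in siPOLR1F. Its groups did not overlap (log2 fold change 0.31, SE 0.06; edgeR adjusted p = 0.0113). A pseudogene row named for it, EIF3FP3, held at most 686 counts. EIF3B (ENSG00000106263, chromosome 7, 2354086 to 2380745, plus strand), a core scaffold subunit, was at 33.9, 37.7 and 34.6 FPKM in NC and at 40.5, 41.5 and 46.0 FPKM in siPOLR1F. All siPOLR1F values of EIF3B were higher (log2 fold change 0.28, SE 0.06; edgeR adjusted p = 0.0207). EIF3D (ENSG00000100353, chromosome 22, 36510855 to 36529184, minus strand), which can bind the cap of some messages directly, was at 74.9, 75.5 and 81.2 FPKM in NC and at 84.0, 87.9 and 90.1 FPKM in siPOLR1F. The EIF3D groups lay close together without overlap (log2 fold change 0.19, SE 0.05; edgeR adjusted p = 0.0395).

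These calls differed in how much they rested on single libraries. EIF3F passed under all 18 alternatives, though its edgeR adjusted p reached 0.0483 without a filter on FPKM. EIF3B lost its call when NC replicate 1, NC replicate 3 or siPOLR1F replicate 3 was left out, with edgeR adjusted p-values of 0.0510, 0.0654 and 0.0616. Its adjusted p lay between 8.40e-04 and 0.0985 over the alternatives tried. EIF3D lost its call when any library but NC replicate 3 was left out (edgeR adjusted p from 0.0642 to 0.108). The EIF3D call also ended without a filter on FPKM (edgeR adjusted p = 0.121) and in both limma fits (limma adjusted p = 0.0592 and 0.0593). Over its alternatives the adjusted p lay between 0.0111 and 0.121. EIF3B overlaps SNX8 on the opposite strand, at a mean of 10.7 FPKM, and reads of overlapping genes cannot be told apart where strand was not used.

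The remaining 11 eIF3 rows lay between -0.12 and 0.11 on the log2 fold change scale. EIF3M, a small structural subunit, went from 39.3 ± 0.315 to 37.1 ± 0.924 FPKM (SD, n = 3), with all siPOLR1F values below NC, and did not pass (edgeR adjusted p = 0.290). EIF3E had the lowest fold change of the eIF3 rows (-0.12, SE 0.07), and EIF3H had -0.03 (SE 0.04). The changes of EIF3A, EIF3G, EIF3I, EIF3J, EIF3K and EIF3L lay between -0.03 and 0.11. EIF3C and EIF3CL are near-identical copies on chromosome 16, between which the counting could divide reads. Their sums were 608 ± 30.0 CPM in NC against 631 ± 22.9 after silencing (SD, n = 3), and the summed row did not pass (log2 fold change 0.07, SE 0.05; edgeR adjusted p = 0.419).

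**Figure D2:**
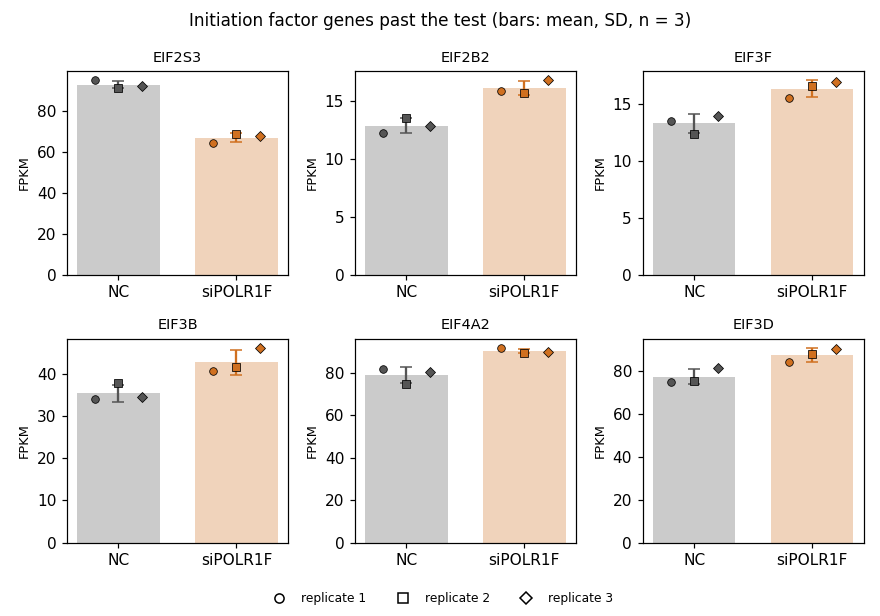
FPKM by library (vertical axes, from 0) for the 6 initiation factor genes past the test, with bars for the mean of 3 libraries, whiskers for the SD and a marker shape for each replicate number. In all 6 panels the NC and siPOLR1F points do not overlap, and EIF2S3 is the only panel in which siPOLR1F is lower. The genes were picked by the test on these same values, so their separation adds no support to it. Among all genes tested, 18.9% had all siPOLR1F libraries above NC and 19.0% had all below.

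The eIF4A helicases unwind structure in the leader of the message. EIF4A2 (ENSG00000156976, chromosome 3, 186783205 to 186789897, plus strand) was at 81.8, 74.7 and 80.6 FPKM in NC and at 91.6, 89.5 and 90.0 FPKM in siPOLR1F. The siPOLR1F libraries lay close to each other and above NC (log2 fold change 0.20, SE 0.05; edgeR adjusted p = 0.0289). The call ended without any library but NC replicate 1 (edgeR adjusted p from 0.0561 to 0.0881). It also ended without a filter on FPKM (edgeR adjusted p = 0.0802). Over all alternatives the adjusted p lay between 0.00543 and 0.0881. EIF4A2 overlaps RFC4 on the opposite strand, at a mean of 21.1 FPKM.

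EIF4A1 (ENSG00000161960, chromosome 17, 7572824 to 7579006, plus strand), the more abundant helicase, did not pass as deposited. It had 57090, 32603 and 78614 counts in NC and 48689, 43687 and 101261 in siPOLR1F. The libraries of each group differed by far more than the group means (log2 fold change 0.21, SE 0.36; edgeR adjusted p = 0.735). Its SD of log2 FPKM among NC libraries was 0.620, above that of 96.7% of all genes tested. The deposited table also holds SENP3-EIF4A1 (chromosome 17), a readthrough locus from 7563287 to 7578715 on the same strand. It begins inside the upstream gene SENP3 and ends shortly before the end of EIF4A1.

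The SENP3-EIF4A1 row had 30536, 53826 and 10468 counts in NC and 66261, 72595 and 19413 in siPOLR1F. Within each group it was high where EIF4A1 was low. EIF4A1 took 65.2%, 37.7% and 88.2% of the counts of both rows in NC and 42.4%, 37.6% and 83.9% in siPOLR1F. Added together, the rows held 87626, 86429 and 89082 counts in NC and 114950, 116282 and 120674 in siPOLR1F. Within each group the sums agreed closely, and the groups were far apart.

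The sum came to 1418 ± 16.9 CPM in NC and 1875 ± 37.9 in siPOLR1F (SD, n = 3). With both rows counted as 1 gene and the whole table fitted again, EIF4A1 rose by a factor of 1.33 (log2 fold change 0.42, SE 0.04; edgeR adjusted p = 4.33e-04). This sum was chosen after the values were seen. It held when each library was left out, with log2 fold changes from 0.40 to 0.43 and edgeR adjusted p-values from 0.00134 to 0.00302. The readthrough row also covers exons of SENP3, whose own row held 2050 to 5157 counts. With the SENP3 row added as well, the ratio of siPOLR1F to NC was 1.30. How the authors' software divided reads between these rows was not tested.

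**Figure D3:**
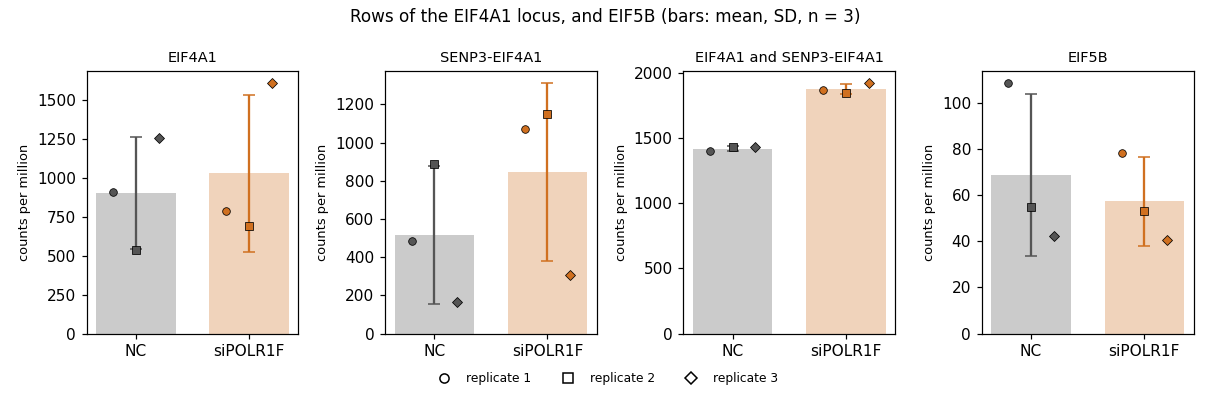
CPM by library (vertical axes, from 0) for EIF4A1, the SENP3-EIF4A1 readthrough row, their sum, and EIF5B, with bars for the mean of 3 libraries, whiskers for the SD and a marker shape for each replicate number. Each EIF4A1 locus row is scattered, while their sum is tight at about 1418 in NC and 1875 in siPOLR1F.

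The other genes of this role did not pass. EIF4A3, a relative of eIF4A that serves in the exon junction complex, averaged 15.8 ± 0.499 FPKM in NC against 17.2 ± 0.477 after silencing (SD, n = 3), with no overlap (edgeR adjusted p = 0.142). The helicase cofactors EIF4B and EIF4H had log2 fold changes of 0.07 and -0.08. Their 95% intervals ran from -0.05 to 0.19 and from -0.19 to 0.04.

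None of the 3 cap-binding genes passed the edgeR test, against 10.3% of all genes tested higher and 6.94% lower. At an unadjusted p below 0.05, 1 of the 3 was higher, against 17.6% of all genes tested. DESeq2 called that 1 while limma called none. EIF4E, the cap-binding protein itself, was at 13.7, 13.5 and 11.5 FPKM in NC and at 13.3, 12.8 and 13.6 FPKM in siPOLR1F. These ranges overlapped (log2 fold change 0.04, 95% interval -0.14 to 0.22). EIF4E2, a cap-binding relative that represses translation, was at 6.97, 7.35 and 7.01 FPKM in NC and at 7.66, 7.90 and 8.59 FPKM in siPOLR1F. Its groups did not overlap, and its adjusted p missed the threshold (log2 fold change 0.19, SE 0.06; edgeR adjusted p = 0.0664). DESeq2 gave EIF4E2 an adjusted p of 0.0353, the lowest of its alternatives, which reached 0.172. EIF4E3 was the least abundant member, with means of 0.693 ± 0.0475 FPKM in NC against 0.572 ± 0.0585 (SD, n = 3; edgeR adjusted p = 0.212).

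None of the 3 eIF4G scaffold genes passed edgeR either, against 10.3% of all genes tested higher and 6.94% lower. At an unadjusted p below 0.05, 1 of the 3 was higher, against 17.6% of all genes tested. DESeq2 called that 1 and limma did not. EIF4G1, the main scaffold of eIF4F, was at 92.1, 113 and 101 FPKM in NC and at 115, 113 and 121 FPKM in siPOLR1F. NC replicate 2 came close to the siPOLR1F values, and the change did not pass (log2 fold change 0.20, SE 0.07; edgeR adjusted p = 0.0866). Without NC replicate 2 the adjusted p was 0.0211, and over all alternatives it lay between 0.0211 and 0.288. EIF4G2, a scaffold that lacks the eIF4E site, averaged 133 ± 5.70 FPKM in NC against 137 ± 7.86 (SD, n = 3; log2 fold change 0.05, 95% interval -0.08 to 0.17). EIF4G3 was at 11.1 ± 0.820 and 11.4 ± 0.533 FPKM (SD, n = 3).

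Among the 4 inhibitors of eIF4E, edgeR, DESeq2 and limma called none, where edgeR called 10.3% of all genes tested higher and 6.94% lower. None of the 4 had an unadjusted p below 0.05, against 17.6% of all genes tested higher and 15.4% lower. EIF4EBP1, which mTORC1 phosphorylates to release eIF4E, was at 142, 147 and 147 FPKM in NC and at 133, 143 and 144 FPKM in siPOLR1F. The groups overlapped (log2 fold change -0.04, 95% interval -0.16 to 0.07). Its paralog EIF4EBP2 averaged 12.6 ± 1.06 FPKM in NC against 13.0 ± 0.966 after silencing (SD, n = 3). EIF4EBP3 was low, with 52 to 78 counts, and overlaps a readthrough locus, ANKHD1-EIF4EBP3. EIF4ENIF1, which carries eIF4E into the nucleus, differed by 0.13 on the log2 scale and did not pass (edgeR adjusted p = 0.294).

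In the start codon group, EIF1 was at 102, 109 and 109 FPKM in NC and at 109, 109 and 116 FPKM in siPOLR1F. The ranges overlapped (log2 fold change 0.07, 95% interval -0.04 to 0.19). EIF1B, its paralog, was at 16.2 ± 1.46 and 17.0 ± 1.45 FPKM, and EIF1AX at 44.2 ± 2.86 and 43.0 ± 2.78 FPKM (SD, n = 3 each). EIF1AD, a gene named for its eIF1A-like domain, differed by 0.06 on the log2 scale. EIF5, the GTPase activator of eIF2, averaged 42.0 ± 4.16 FPKM in NC against 47.0 ± 3.92 (SD, n = 3; edgeR adjusted p = 0.222).

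EIF5A, which aids elongation and termination and carries the amino acid hypusine, was the most abundant member by FPKM. It was at 262, 284 and 271 FPKM in NC and at 285, 289 and 301 FPKM in siPOLR1F. The groups did not overlap by a small margin, and the change did not pass (log2 fold change 0.11, SE 0.05; edgeR adjusted p = 0.145). EIF5A2, its paralog, was at 2.58 ± 0.394 and 2.65 ± 0.254 FPKM (SD, n = 3), and EIF5AL1, a further EIF5A-like gene, at 3.74 ± 0.0564 and 3.72 ± 0.327 FPKM. EIF6, which guards the free large subunit, was at 150, 166 and 159 FPKM in NC and at 174, 171 and 172 FPKM in siPOLR1F, all above NC. It did not pass (log2 fold change 0.13, SE 0.05; edgeR adjusted p = 0.106).

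EIF5B, which joins the large subunit, was scattered, as EIF4A1 was. It had 6799, 3325 and 2648 counts in NC and 4839, 3345 and 2562 in siPOLR1F. The library numbered 1 was the highest in both groups. Its SD of log2 FPKM was 0.692 in NC, above that of 97.3% of all genes tested, and the change between the groups did not pass (log2 fold change -0.25, 95% interval -1.03 to 0.53). In the table it overlaps REV1 on the opposite strand, whose row was at a mean of 5.00 FPKM, and no same-strand row at 0.5 FPKM or more.

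Ratios between paralogs within a library do not depend on scaling between libraries, and 7 were compared. The FPKM ratio of EIF4G1 to EIF4G2 was 0.763 ± 0.0560 in NC and 0.847 ± 0.0192 in siPOLR1F (SD, n = 3; exact two-sided permutation p = 0.1, the smallest these groups allow; Benjamini-Hochberg adjusted p = 0.7). The ratio of EIF4E to EIF4E2 was 1.81 ± 0.162 and 1.64 ± 0.0830 (exact permutation p = 0.2). EIF4EBP1 exceeded EIF4EBP2 by 11.5 ± 0.751 times in NC and 10.8 ± 0.400 times in siPOLR1F (exact permutation p = 0.3). For EIF4G1 to EIF4G3 they were 9.23 ± 1.45 and 10.2 ± 0.806 (exact permutation p = 0.4), and for EIF5A to EIF5A2 they were 106 ± 11.4 and 111 ± 10.2 (exact permutation p = 0.7). Those of EIF1 to EIF1B were 6.63 ± 0.350 and 6.59 ± 0.596, and those of EIF4A1 to EIF4A2, with EIF4A1 as deposited, 1.95 ± 0.730 and 1.98 ± 0.993 (exact permutation p = 1.0 for each). With 3 libraries a group no ratio could pass a threshold of 0.05, so these tests do not show that the ratios were equal.

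As a whole the 50 genes took 1.37%, 1.36% and 1.39% of all counts in NC and 1.40%, 1.38% and 1.51% in siPOLR1F (exact two-sided permutation p = 0.2). The groups overlapped, and siPOLR1F replicate 3, where EIF4A1 was highest, stood above the others. With the SENP3-EIF4A1 row included, NC libraries gave 1.42%, 1.45% and 1.41% of counts and siPOLR1F libraries 1.51%, 1.49% and 1.54%, with no overlap (exact two-sided permutation p = 0.1).

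Levels between members can be compared only per length, and the length behind the FPKM mattered. The length implied by count and FPKM was a median of 1.77 times the longest protein-coding transcript of the gene in GENCODE 29, and the ratio ran from 0.482 for EIF4E to 27.3 for EIF3E. EIF3E had 29606 to 36212 counts per library but only 12.5 ± 1.02 FPKM in NC (SD, n = 3), the lowest NC mean among the eIF3 rows. Its implied length was 42129 bases, against 1543 bases for the longest coding transcript. Per kilobase of that transcript EIF3E had 342 CPM in NC, the highest of the eIF3 rows. EIF3I, with an implied length of 10629 bases against 1458, moved likewise. As deposited, EIF5A headed the members on either scale, at 272 ± 11.2 FPKM (SD, n = 3) and 540 CPM per kilobase, and EIF4E3 closed the list on either scale. With the SENP3-EIF4A1 counts added, EIF4A1 came to 807 CPM per kilobase of its own longest coding transcript (1756 bases), above EIF5A. The readthrough row also covers exons of SENP3 outside that length, so this value may be too high. These lengths leave fold changes of a gene as they are, since each gene's length is the same in all libraries.

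**Figure D4:**
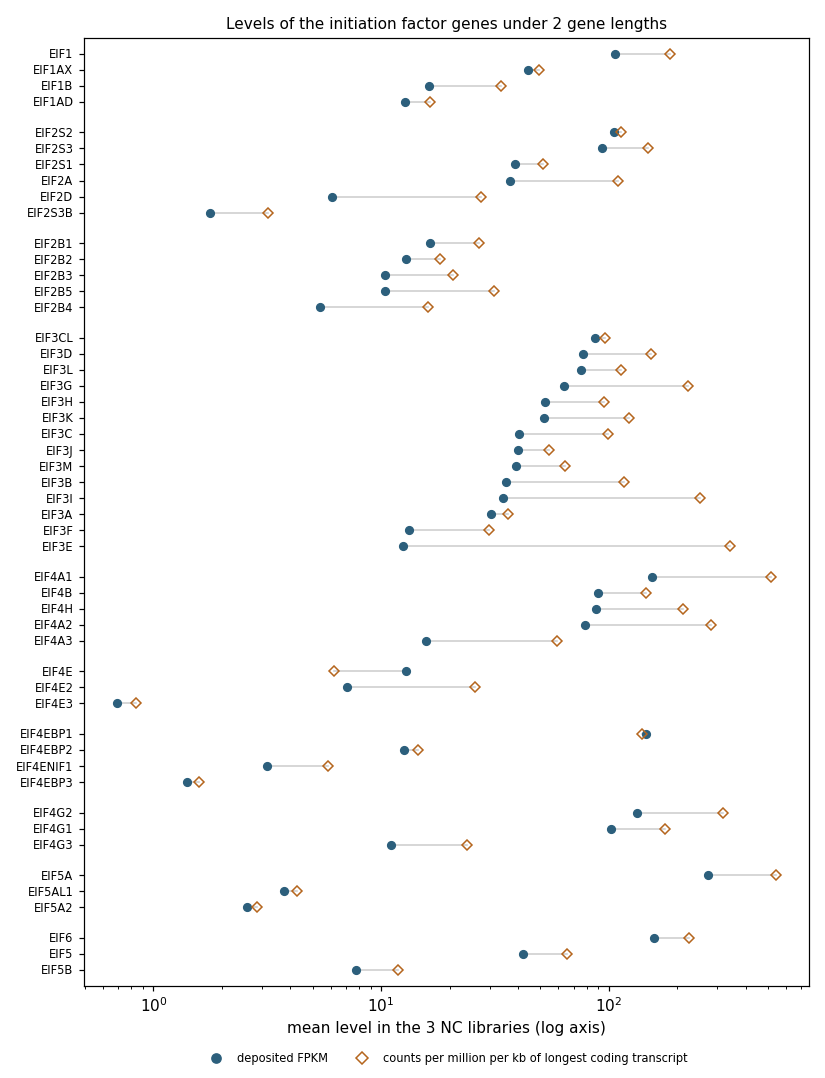
Mean level of the 50 initiation factor genes in the 3 NC libraries (log axis), as deposited FPKM (filled circles) and as CPM per kilobase of the longest protein-coding transcript in GENCODE 29 (open diamonds). EIF3E moves from 12.5 to 342, the widest gap, while EIF4EBP1, EIF1AX and EIF2S2 hardly move.

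Genes that act on the initiation factors were followed through a list of kinases, phosphatases, mTORC1 components, poly(A)-binding proteins, helicases and modifying enzymes. All 49 were in the table and 48 were tested. By edgeR 9 rose and 3 fell, or 18.75% and 6.25% of the 48, against 10.3% and 6.94% of all genes tested, and the median log2 fold change was -0.04. PAIP2B, at a mean of 0.443 FPKM, was not tested.

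On the eIF2 side, none of the 6 genes for eIF2α kinases and their partners passed edgeR, against 10.3% of all genes tested higher and 6.94% lower. At an unadjusted p below 0.05, GCN1 was higher (log2 fold change 0.17) and EIF2AK2 lower (-0.18), against 17.6% and 15.4% of all genes tested. DESeq2 called 1 of the 6 higher, against 1781 of all 13564 genes, and limma called 0. PPP1R15A, which directs phosphatase to eIF2α, was at 27.2, 26.6 and 26.3 FPKM in NC and at 59.8, 42.9 and 47.1 FPKM in siPOLR1F. All siPOLR1F values were higher, with siPOLR1F replicate 1 highest (log2 fold change 0.91, SE 0.11; edgeR adjusted p = 0.00154). Its constitutive relative PPP1R15B differed by 0.17 on the log2 scale and did not pass (edgeR adjusted p = 0.106).

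On the cap-binding side, the eIF4E kinase MKNK2 was at 18.5, 16.4 and 18.8 FPKM in NC and at 34.8, 36.2 and 35.9 FPKM in siPOLR1F. It rose to a level 2.00 times that of NC (log2 fold change 1.00, SE 0.06; edgeR adjusted p = 8.16e-05). The other eIF4E kinase, MKNK1, differed by -0.19 on the log2 scale and did not pass (edgeR adjusted p = 0.101). ZNF598, a ubiquitin ligase that partners the eIF4E2 repressor complex, rose by 0.29 on the log2 scale (edgeR adjusted p = 0.0335).

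Of 10 genes of the mTORC1 arm, 3 rose and 2 fell, against 10.3% and 6.94% of all genes tested. RPS6KB2, an S6 kinase that phosphorylates eIF4B, was at 8.49, 8.97 and 9.86 FPKM in NC and at 5.82, 6.10 and 6.04 FPKM in siPOLR1F. Its groups were far apart (log2 fold change -0.60, SE 0.07; edgeR adjusted p = 0.00130). LARP1, which binds the starts of TOP messages, averaged 24.8 ± 1.76 FPKM in NC against 31.7 ± 1.56 (SD, n = 3; log2 fold change 0.36, edgeR adjusted p = 0.00666). The kinase gene MTOR rose by 0.30 on the log2 scale and RPTOR, its scaffold, by 0.27 (edgeR adjusted p = 0.0190 and 0.0369). PDCD4, an inhibitor of eIF4A named here after its value was seen, fell by 0.31 (edgeR adjusted p = 0.0434). Its call ended in each of the 6 fits that left out a library, with edgeR adjusted p-values from 0.0506 to 0.174, and held in 10 of 18 alternatives.

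Of 7 tested genes for poly(A)-binding proteins and their partners, 1 rose and 1 fell, against 10.3% and 6.94% of all genes tested. PABPC4 rose by 0.18 and PAIP2, which pulls the poly(A)-binding protein off the message, fell by 0.30 on the log2 scale (edgeR adjusted p = 0.0371 and 0.00658). The far more abundant PABPC1, at a mean of 192 FPKM, went the other way from PABPC4. Its log2 fold change was -0.115, with all siPOLR1F values below NC, and did not pass (edgeR adjusted p = 0.0694). The median of the 7 was also -0.115. PAIP2 was at 33.0, 32.7 and 34.1 FPKM in NC and at 26.5, 27.8 and 26.6 FPKM in siPOLR1F. ABCF1, an ATPase that promotes binding of eIF2 to ribosomes, rose by 0.30 (edgeR adjusted p = 0.0309). DOHH, which completes hypusine on eIF5A and was named after its value was seen, rose by 0.40 (edgeR adjusted p = 0.0387). Its call ended without NC replicate 1, NC replicate 3, siPOLR1F replicate 1 or siPOLR1F replicate 3, and the edgeR adjusted p reached 0.121 there. The calls of MTOR, RPTOR, ABCF1, ZNF598 and PABPC4 each ended when some single libraries were left out, and without a filter on FPKM. In both limma fits the calls of RPTOR and PABPC4 ended as well (limma adjusted p from 0.0650 to 0.0672). The highest edgeR adjusted p over the alternatives was 0.0867 for MTOR, 0.132 for RPTOR, 0.125 for ABCF1, 0.126 for ZNF598 and 0.114 for PABPC4. Those of MKNK2, RPS6KB2, PPP1R15A, PAIP2 and LARP1 held under all 18 alternatives. The highest edgeR adjusted p among them was 0.0456, for LARP1 without a filter on FPKM.

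**Figure D5:**
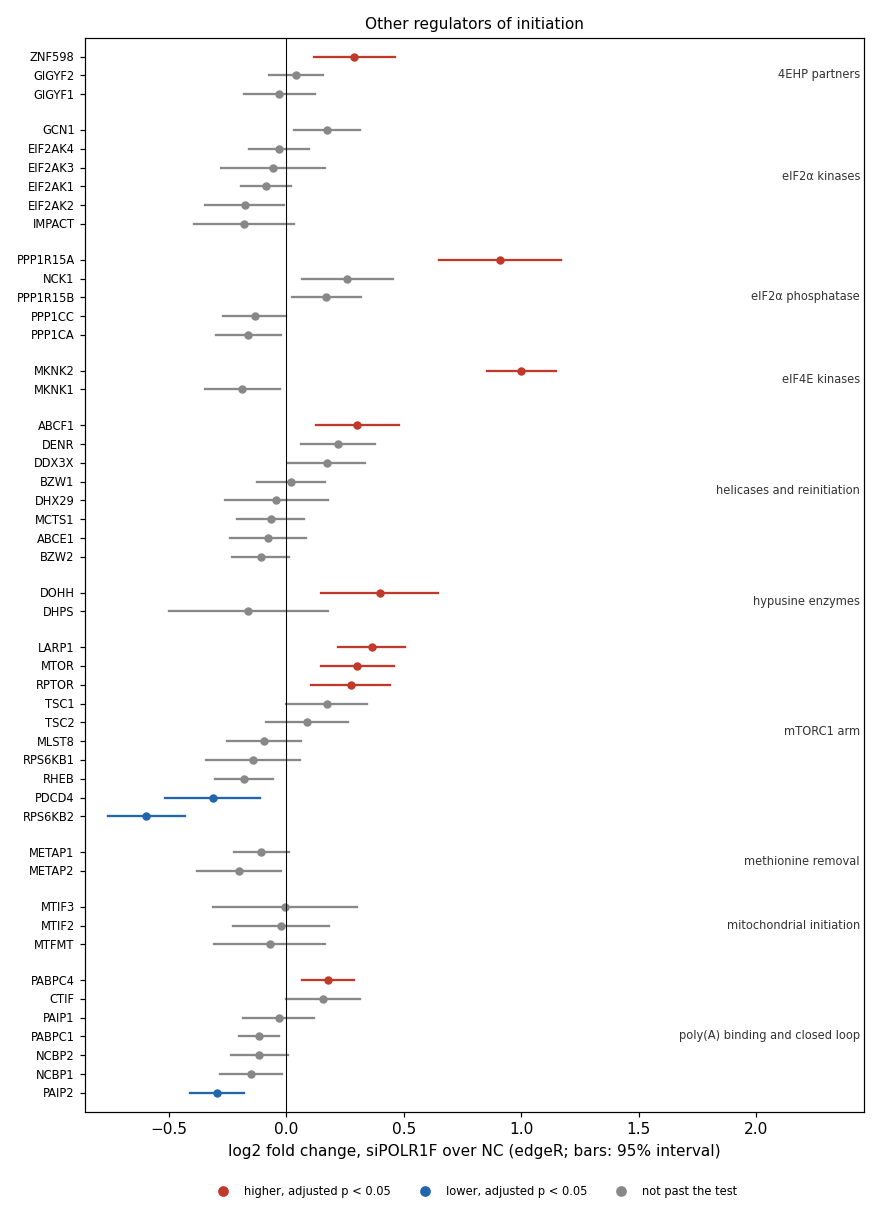
Log2 fold change (siPOLR1F over NC, horizontal axis) of the 48 tested regulators of initiation, grouped by function, with points for the edgeR estimate and bars for its 95% interval. MKNK2 at 1.00 and PPP1R15A at 0.91 lie far to the right of all others, and RPS6KB2 at -0.60 lies farthest to the left.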

How the data were processed

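The authors deposited 1 table with a whole-number count and an FPKM per gene and library. The submitters' processing notes name the tools fastp, HISAT2, StringTie and the build GRCh38 (hg38). Which versions, annotation and strand setting they used is not given in the sources used here, so reads of overlapping rows may be divided between them. The deposited FPKM were checked against the deposited counts: in 11428 genes their ratio deviated from 1 factor per library by 0.0202% (median).

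Counts were fitted with edgeR 4.0.16 (TMM factors, glmQLFit, glmQLFTest; R 4.3.3) over 13564 genes with a mean of at least 0.5 FPKM, which held 99.4% of the counts. P-values were two-sided and adjusted over all of them (Benjamini-Hochberg, threshold 0.05). The SE is the log2 fold change over the square root of F, and 95% intervals use the fit's degrees of freedom without adjustment. In simulated data of 13564 genes, changes were planted at random over all levels of expression. The fit recovered 18 of 50 genes planted at a log2 change of 0.5 and 24 of 50 at -0.5. At changes of 1.0 and -1.0 it recovered 34 and 37 of 50. Of its 123 calls there, 10 were false. A change of 0.5 can therefore go uncalled. The real data gave 2333 calls, and the median SD among NC libraries was lower for members than for all genes tested. The simulated shares therefore need not hold for the members. Alternatives were DESeq2 1.42.0, limma 3.58.1 on log2(FPKM + pseudocount) with 1 or 0.1, other scalings and filters, robust dispersions, a replicate block, leaving out each library and, after the data were seen, summing rows that share sequence.

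The members and lists were chosen with earlier results of these data known. Named genes were POLR1F, the members past the test, the most abundant member of each role without one, both genes of each ratio, and the 10 regulators with the smallest adjusted p. EIF5B, EIF3E and others were added after their values were seen. Sequences are from RefSeq (GRCh38.p14), with 42 of 50 members matched.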

Additional observations from a re-analysis of the deposited data

How the results depend on the processing

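POLR1F, EIF2S3, EIF2B2 and EIF3F kept their direction and side of the threshold under all 18 alternatives. The 30 named genes did so in 481 of 540 refits, which include uncalled genes that stayed uncalled. The settings that summed rows left the counts of most of these genes as they were. Without a filter on FPKM, 33539 genes were fitted rather than 13564, and 663 of them were higher and 313 lower. In that fit 2 of the 50 initiation factor genes and 3 of the 49 other regulators were higher. With library size alone, 5 of the 48 tested regulators were lower, against 1077 of all 13564 genes tested. Leaving out 1 library gave 778 to 1328 genes higher and 365 to 838 lower, 2 to 4 initiation factor genes higher and 1 lower, and 3 to 10 other regulators higher and 2 to 3 lower. Among these fits the counts fell most without siPOLR1F replicate 3, to 778 of 13598 genes higher and 365 lower. In that fit 2 of 50 members and 3 of 48 regulators were higher. Without NC replicate 2, 1328 of 13583 genes were higher, with 4 of 50 members and 10 of 48 regulators. DESeq2 called 1781 genes higher and 1345 lower, and 7 initiation factor genes higher. With filterByExpr 68.1% of calls were higher, and without a filter 67.9%, against 59.6%.

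The direction of some uncalled genes turned when a library was left out, with log2 fold changes from -0.035 to 0.0877 for EIF4E, -0.26 to 0.52 for EIF4A1, -0.0221 to 0.18 for EIF5A2 and -0.0208 to 0.10 for EIF4EBP2. The log2 differences of ratios ran from -0.40 to 0.25 for EIF4A1 to EIF4A2, -0.0331 to 0.12 for EIF5A to EIF5A2 and -0.059 to 0.0658 for EIF1 to EIF1B. The cause was not tested.

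Libraries with the same number correlated at 0.29, 0.02 and 0.27 in their deviations from the group mean. Those with unlike numbers correlated at -0.28 to 0.01. Libraries numbered 1 and 3 thus resembled their namesakes in the other group, and those numbered 2 hardly did. The main fit did not pair the libraries, and whether the numbers mark pairs was not tested. With the replicate block, edgeR called 1517 genes higher and 1125 lower, and 5 initiation factor genes higher and 1 lower. By depth EIF4EBP3, with 52 to 78 counts, was the most limited member.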
